A study of Mus musculus with 15 samples.

Results

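H3K27me3, the trimethylation of lysine 27 on histone H3, was compared at gene start sites in chromatin from 100000, 10000 and 1000 cells. The members were the rows of the deposited start-site table with a value above 0 in at least 1 of these 3 libraries, 27508 of 28373 transcript rows, or 21803 of 22035 genes. All cells were TT2, a wildtype male mouse embryonic stem (ES) cell line derived from the inner cell mass of a C57BL/6 x CBA blastocyst. The cells were sorted into nuclear isolation buffer and carried no treatment, and each cell number was immunoprecipitated with the same polyclonal antibody in 1 library. The series holds 15 libraries in all. Of the others, the RNA library (1000 cells, ribosomal RNA depleted), the H3K4me3 library of 100000 cells and the 2 panH3 libraries of 1000 cells (all nucleosomes, whatever their modification) were used here to class genes and bins. Values were deposited as RPKM, read density scaled to length and to the mapped reads of the library, within 1 kb on either side of the start site. With 1 library per cell number a difference between libraries has no replicate check, so no p-value is given, and all counts below describe these 3 libraries.

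H3K27me3 is laid down by Polycomb repressive complex 2, whose catalytic subunits are Ezh1 and Ezh2, and is bound by the Cbx subunits of one form of Polycomb repressive complex 1. In ES cells it covers CpG-rich start sites of silent developmental regulators, many of which also carry H3K4me3, a mark of start sites that are active or held ready. Genes such as the Hox clusters, which set position along the body axis, are the classic targets, while start sites of housekeeping genes are nearly free of the mark.

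The RNA library had the profile of ES cells. Of 8 ES cell markers, 7 were found in the table, at 15 to 222 RPKM, with Pou5f1 at 81.4 and Nanog at 53.6. Of 24 fibroblast and feeder markers 7 were at 0 and 5 reached 1 RPKM, led by Fn1 at 38.5 and Vim at 13.5, while Col3a1, Lum, Dcn and Postn were at 0. Trophoblast and endoderm marker lists had median levels of 0.51 and 0.21 RPKM. These markers describe the RNA library and were not measured in the cells of the other libraries.

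To set the libraries on one scale, each RPKM was divided by the library's median over unmarked expressed transcripts, those with RNA of at least 1 RPKM and a mean percentile rank of H3K27me3 below 0.5 over the 3 libraries (10545 transcripts of 8021 genes). This ratio is called E, so that E = 1 is the level of an expressed gene without the mark. The unmarked median was 0.13 RPKM at 100000 cells, 0.11 at 10000 cells and 0.18 at 1000 cells. It was highest in the smallest library, and it corresponds to about 4.36, 2.83 and 3.93 reads, so the scale itself is coarse. Differences were taken on log2(E + 1). A gene was called marked when E was at least 10 in both the 100000-cell and the 10000-cell library, and the start site with the highest mean E stood for each gene.

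Marked start sites as a group had less signal at 1000 cells. Median RPKM over the 1311 marked genes, 6.01% of all genes, was 1.88 with 100000 cells, 2.09 with 10000 and 1.19 with 1000. On the common scale these are E of 14.5, 19 and 6.61. The 1000-cell library was thus the lowest of the 3, while the 10000-cell library was the highest, with a median difference from 100000 cells of 0.34 on log2(E + 1). The median difference of the 1000-cell library was -1.10 from 100000 cells (quartiles -1.29 and -0.89) and -1.43 from 10000 cells (quartiles -1.65 and -1.21). E at 1000 cells was below both other values in 1308 of the 1311 marked genes, against 12814 of all 21803 genes. Without scaling, the RPKM was below both in 1271 marked genes and in 7694 of all genes. Marked genes were chosen for high values in the 2 larger libraries, which adds to both marked counts. In 953 marked genes, 72.7%, E was at least 2-fold below both, where 19.7% of all genes and 16.3% of genes that were not marked met the same criterion. The count of 953 depended on the scale: it was 246 without scaling, 452 with the unmarked level subtracted and 506 with scaling to all transcripts. At least 2-fold higher than in both were 596 genes (2.73% of all genes and 2.91% of genes that were not marked), none of them marked. Of these 596 genes, 594 had E under 2 at 100000 cells, so this count of 0 follows from the level of marked genes and nothing is read from it. Scaled to the mean of the unmarked set in place of its median, the differences were -1.08 and -1.29. In a pool of cells, fewer cells with the mark and less of the mark per cell cannot be told apart. With 1 library per cell number, neither can be told apart from a difference in the making of the libraries. The unmarked level was also highest at 1000 cells, 0.18 RPKM against 0.13 at 100000 and 0.11 at 10000 cells. Dividing by it lowers E at 1000 cells more than in the larger libraries.

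The loss was partial. At 1000 cells 146 marked genes still had E of 10 or more, 870 lay between 5 and 10, 271 between 3 and 5, 19 between 2 and 3, and 5 below 2. The 95th percentile of E over the 5205 transcripts with RNA of at least 10 RPKM was 2.89 at 1000 cells, and 1289 of the 1311 marked genes (98.3%) remained above it. On the E scale, the median at 1000 cells less the unmarked level of 1 was 31.2% of that at 10000 cells and 41.7% of that at 100000 cells. With the unmarked level subtracted from RPKM and no further scaling, these shares were 51.0% and 57.7%, so the share kept depends on the scale.

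**Figure D1:**
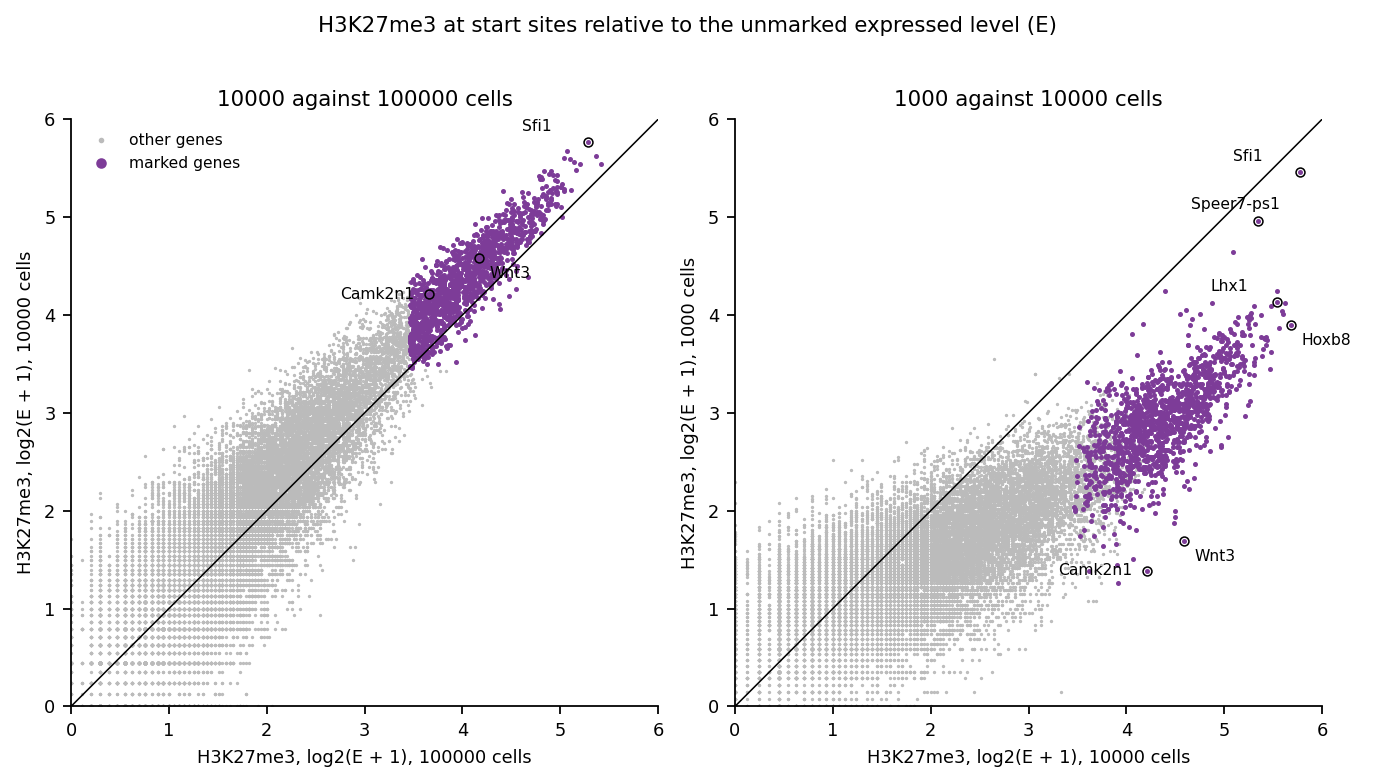
H3K27me3 at start sites as log2(E + 1), where E is RPKM relative to unmarked expressed transcripts, with 1 point per gene (21803 genes) and the 1311 marked genes in purple. Left, 10000 against 100000 cells, where most marked genes lie above the diagonal (median difference 0.34). Right, 1000 against 10000 cells, where they lie below it (median difference -1.43), with Wnt3 and Camk2n1 farthest below and Sfi1 and Speer7-ps1 near it.

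Because the marked set was chosen on the 2 larger libraries, chance highs in those libraries add to the apparent loss. Genes were therefore also classed by E at 100000 cells alone, and the 1000-cell library was set against the 10000-cell library, which took no part in the choice. The difference grew with level and then levelled off. Part of this growth is built into the scale. The unmarked level sets E near 1 in each library, and the 1 added to E shrinks differences at low E. It was -0.05 in the 10186 genes with E under 2, -0.57 in the 7441 genes from 2 to 5, -0.99 in the 2844 genes from 5 to 10 and -1.42 in the 1096 genes from 10 to 20. It was -1.49 in the 212 genes from 20 to 30 and -1.44 in the 24 genes from 30 up. Of the median E above 1 at 10000 cells, 42.8% was kept in the class from 2 to 5, 37.3% from 5 to 10, 31.1% from 10 to 20, 30.7% from 20 to 30 and 34.2% in the top class. In RPKM less the unmarked level, without scaling, the shares of the same classes were 70.0%, 61.0%, 50.8%, 50.2% and 56.0%. On both scales the share fell from the lower classes to the class from 20 to 30 and was slightly higher in the top class. The order of the classes by median E was the same in the 3 libraries, but their spread was smaller at 1000 cells: the top class stood at E of 39.1 at 10000 cells and 14.1 at 1000 cells. Choosing genes on the smallest library instead gave the same direction: the 147 genes with E of at least 10 at 1000 cells, 146 of them marked, had median E of 24.3, 31.4 and 11.6 at 100000, 10000 and 1000 cells. The size of the loss depended on the choice: among the 1311 genes with the highest value at 1000 cells, 959 of them marked, 46.3% were at least 2-fold below both larger libraries, with differences of -0.87 and -1.23 from 100000 and 10000 cells.

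**Figure D2:**
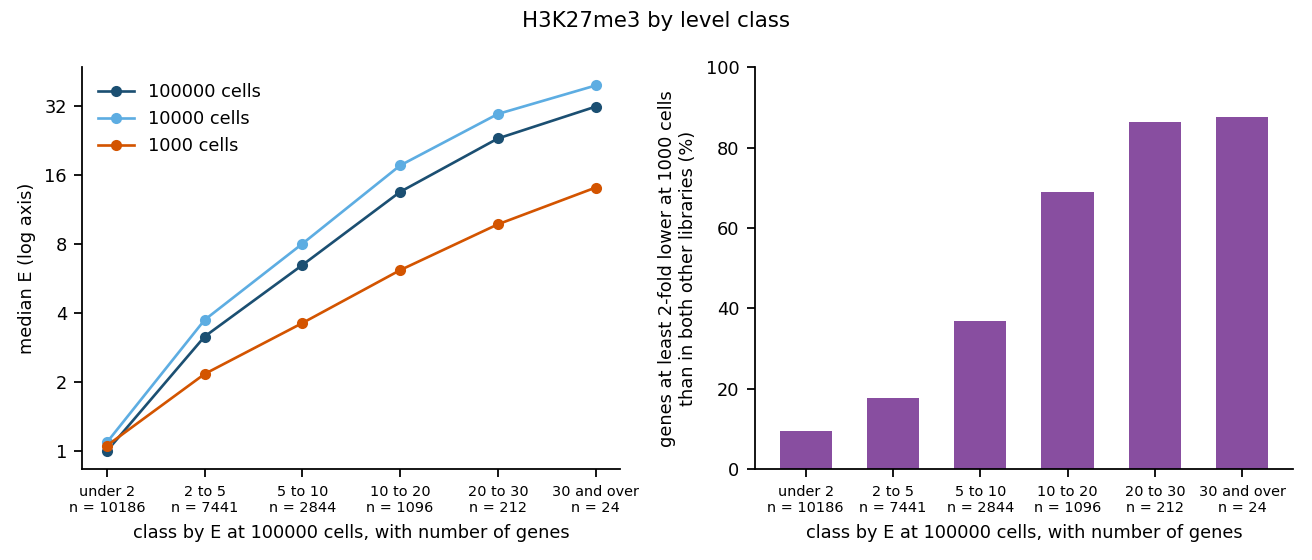
H3K27me3 by class of E at 100000 cells. Left, median E of each class in the 3 libraries on a log axis, where the 1000-cell line falls away from the others as the level rises, from 1.06 in the lowest class to 14.1 in the highest. The lines lie close together in the lowest class in part because the scaling sets E near 1. Right, the percentage of each class with E at 1000 cells at least 2-fold below both other libraries, from 9.48% under 2 to 87.5% from 30 up; the 100000-cell value that sets the class also enters this call.

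The same pattern stood in a second deposited table, of 2 kb bins, in which values are whole multiples of 1 read. There 92 bins held the start site of a marked gene, and 572 held only unmarked expressed start sites. Marked bins were 11.4-fold above unmarked expressed bins at 100000 cells (95% interval 11 to 11.9), 13.3-fold at 10000 cells (12.7 to 13.8) and 5.57-fold at 1000 cells (5.30 to 5.86). These exact intervals, from 3026 to 8503 reads in the marked bins, cover counting error only, since reads from amplified DNA are not independent molecules. The interval at 1000 cells lay wholly below the other intervals. In panH3 the marked bins were at 0.914 ± 0.032 (SD, n = 2 libraries) of the unmarked bins, so nucleosome signal as such was not higher there. The bins are libraries seen through other windows, not new samples.

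**Figure D3:**
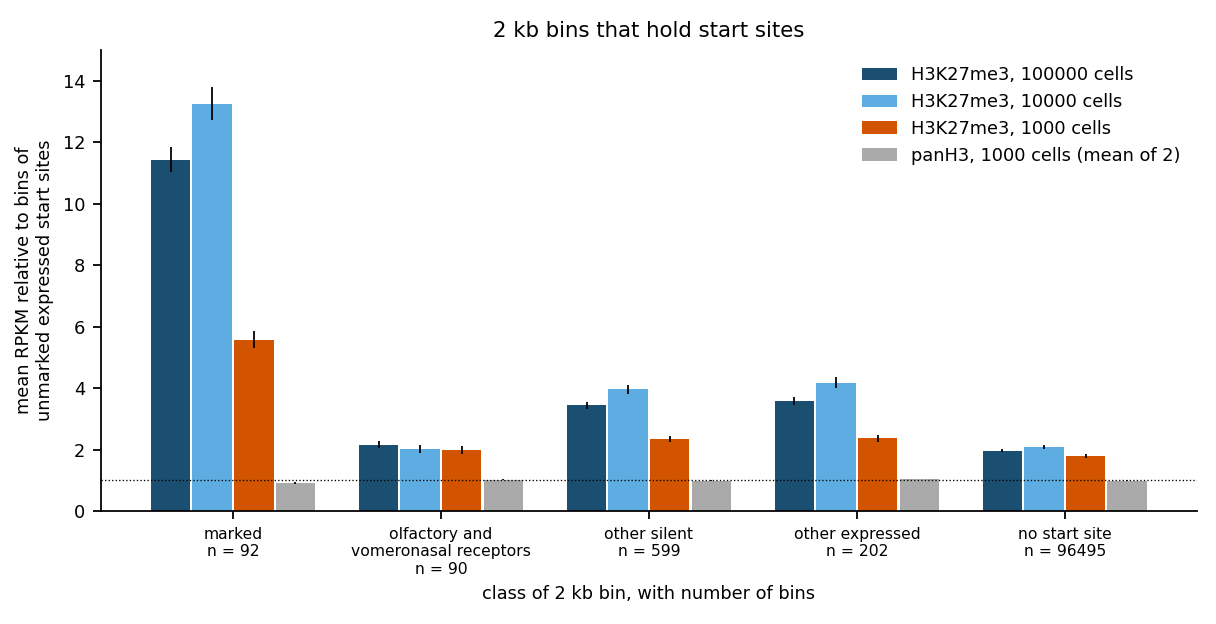
Mean RPKM of 2 kb bins by the start sites they hold, relative to bins of unmarked expressed start sites (dotted line at 1). Bars are the H3K27me3 libraries with 95% counting intervals and the mean of 2 panH3 libraries with SD. Marked bins stand at 11.4, 13.3 and 5.57. Bins of olfactory and vomeronasal receptors stay near 2 in each H3K27me3 library and near 1 in panH3, and bins without a start site stand at 1.97, 2.10 and 1.79.

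Nearly all Hox genes were marked, and their levels were above those of marked genes as a whole in each library. All but 1 of 39 Hox genes were marked, and their median E was 22 at 100000 cells, 30.2 at 10000 cells and 9.22 at 1000 cells. Hoxb8 had 4.23, 5.52 and 2.5 RPKM at 100000, 10000 and 1000 cells, and Hoxb3 had 4.45, 5.09 and 2.44. In both genes the 1000-cell value was the lowest and the 10000-cell value the highest. Within the clusters Hoxa7 kept the most, with E of 27.1, 38.4 and 16, and Hoxb2 the least, with 27.8, 36.1 and 6.83. The median residual of the marked Hox genes, that is the difference at 1000 cells less the median difference of all genes of equal level, was -0.15, against -0.02 for all marked genes.

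Other transcription factor families followed. Of 119 homeobox genes outside the Hox clusters 86 were marked, with median E of 18.2, 24.6 and 7.33. Lhx1, a regulator of head organizer and kidney development, had 4.64, 5.0 and 2.97 RPKM, and Otx1, a forebrain factor, had 5.24, 5.30 and 2.96. Both were near the top of every library. Marked members of the forkhead (21 of 44), Sox (9 of 19), T-box (8 of 17) and lineage bHLH lists (27 of 44) had median E of 7.72, 8.39, 7.83 and 7.33 at 1000 cells, all above the 6.61 of marked genes as a whole, as they were in the larger libraries. Foxa2, a pioneer factor of endoderm, had E of 25.3, 31.7 and 12.5. Sox17, which directs endoderm, had the highest RPKM at 100000 cells of any gene, 5.4, with 5.02 at 10000 cells and 3.23 at 1000 cells. Sox3, on the X chromosome, had E of 11.2, 16.2 and 2.5 and was the Sox gene with the largest difference, and the median residual of marked Sox genes was -0.29.

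**Figure D4:**
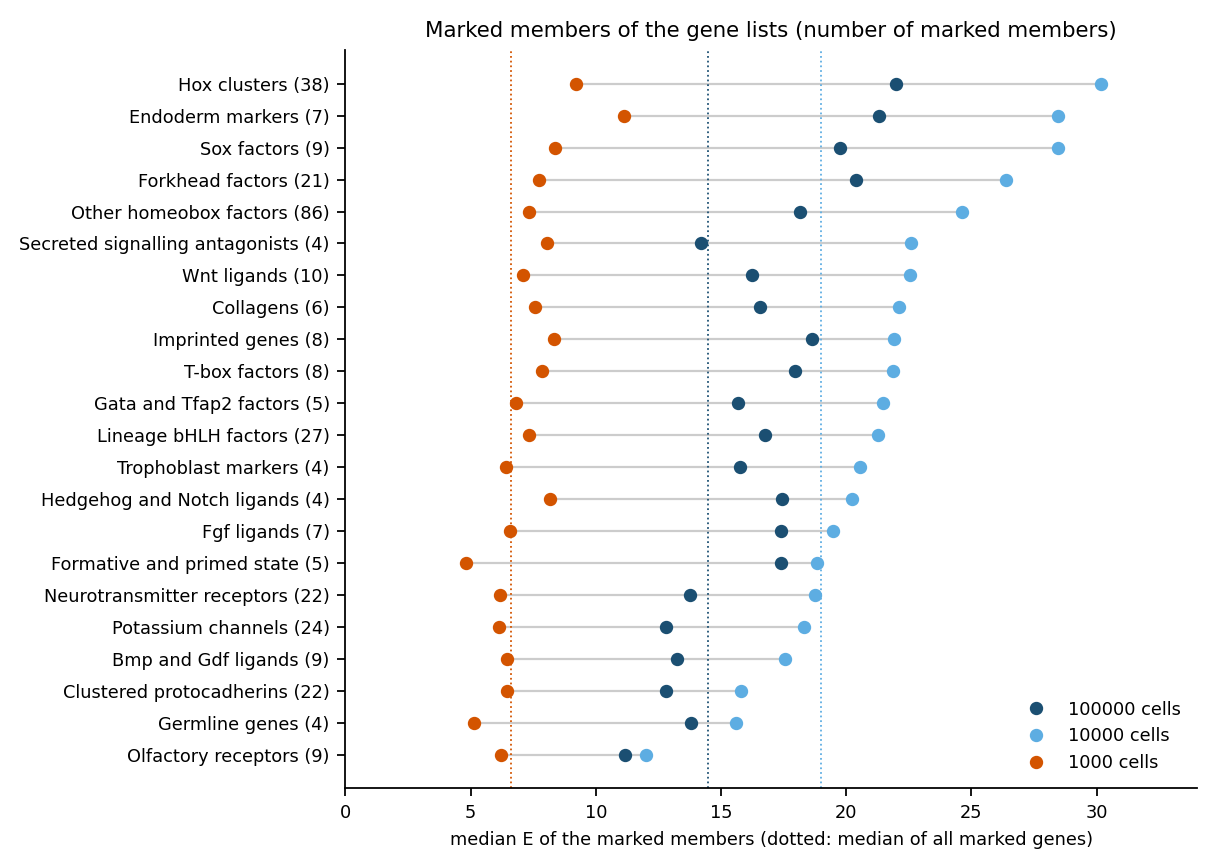
Median E of the marked members of 22 gene lists with at least 4 marked members, in the 3 libraries, ordered by the 10000-cell value; dotted lines are the medians of all 1311 marked genes (14.5, 19 and 6.61). In every list the 1000-cell median is the lowest, from 4.83 in formative and primed state genes to 11.1 in endoderm markers. Of the 1311 marked genes, 1308 were lower in E at 1000 cells than in both larger libraries, so this direction was nearly fixed for any list.

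Among the ligand lists, marked Wnt genes were spread most widely, with an SD of the residuals of 0.549 over 10 genes. It was 0.389 over 7 Fgf genes, 0.351 over 9 Bmp and Gdf genes and 0.217 over 4 Hedgehog and Notch ligands. Over all marked genes it was 0.325. The Fgf value was not particular to ligands: 8 imprinted genes had 0.420, 22 clustered protocadherins 0.386 and 22 neurotransmitter receptors 0.383. These SDs are descriptions over few genes, and no test of spread was made. Of 19 Wnt ligands 10 were marked, with median E of 16.2, 22.5 and 7.08. Wnt1, which patterns the midbrain, had 2.93, 3.05 and 1.72 RPKM at 100000, 10000 and 1000 cells. Wnt3, needed for the primitive streak, had 2.20 and 2.53 RPKM in the larger libraries and 0.40 at 1000 cells, the largest difference of any marked gene (-2.69). Wnt10b stood at the other end of the list with 1.38, 1.47 and 1.59 RPKM. Of 22 Fgf ligands 7 were marked; Fgf5, a gene that comes on as ES cells leave the naive state, had E of 17.4, 19.5 and 4.22. The imprinted gene Dlk1, a Notch-related growth factor, had E of 15.8, 19.7 and 3.5, while Cdkn1c, an imprinted cell cycle inhibitor, had 27.4, 30.5 and 12.3. Shh and Dll4, ligands of the hedgehog and Notch pathways, had E of 11.1 and 9.17 at 1000 cells. Lists are described by their medians only, and no list was tested against another.

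Marked neuronal genes had lower levels than the transcription factor lists above in each of the 3 libraries. Marked potassium channel genes (24 of 92) and neurotransmitter receptors (22 of 101) had median E of 12.8, 18.3 and 6.14 and of 13.8, 18.8 and 6.17, with residuals of 0.02 and 0.11. Clustered protocadherins, cell surface proteins of neurons, were marked in 22 of 58 genes with E of 12.8, 15.8 and 6.44 and a residual of 0.14. Many of them lie close together and share reads or start sites, so they are not independent. Pcdhac2 of that list had E of 20.1, 25.0 and 4.56 and Pcdha9 had 19.8, 16.3 and 11.1.

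Genes of the ES cell state itself were mostly unmarked. Of 27 core and naive pluripotency genes 2 were marked. Esrrb, a nuclear receptor of the naive state with RNA of 73.8 RPKM, had 3.68, 4.08 and 1.72 RPKM of H3K27me3 at the row with its highest signal. Lefty1, a Nodal antagonist, had 1.45, 1.5 and 1.52 RPKM and E of 11.2, 13.6 and 8.44. Its RPKM was nearly the same in the 3 libraries, while that of Esrrb was lowest at 1000 cells. Formative and primed state genes were marked in 5 of 15, among them Otx2 with E of 18.8, 19.3 and 6.5 and T (brachyury) with 13, 18.4 and 4.83. Polycomb genes include targets of the mark they read: Cbx8 had E of 29.5, 38.4 and 9.44, and Cbx2 had 12.2, 15.5 and 4.22. Both genes lie close together on chromosome 11.

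Olfactory and vomeronasal receptors, families that are silent in ES cells and mostly lack Polycomb marking, had small differences. The 1098 olfactory receptor genes had median E of 3.08, 3.09 and 2.28, and the 307 vomeronasal receptor genes 2.46, 2.55 and 1.94. Of olfactory receptors 8.74%, and of vomeronasal receptors 10.7%, were at least 2-fold below both larger libraries, less than the 19.7% of all genes. Their median differences from 10000 cells were -0.36 and -0.18. Other tissue-specific families lay between these and the marked genes. Keratins (96 genes, 2 marked) had median E of 4.35, 5.77 and 3.31 and a difference of -0.66, and cytochrome P450 genes (92 genes, 2 marked) had 3.08, 3.95 and 2.25 and a difference of -0.61, with 12.5% and 17.4% at least 2-fold below both. These differences are near the -0.57 of all genes with E from 2 to 5. In bins, olfactory and vomeronasal receptors together were 2.16-fold (2.04 to 2.29), 2.01-fold (1.88 to 2.16) and 1.99-fold (1.85 to 2.13) above unmarked expressed bins at 100000, 10000 and 1000 cells. Their panH3 was at 1.03 ± 0.017 (SD, n = 2 libraries). The H3K27me3 intervals overlap, in contrast to those of marked bins. The 96495 bins without a start site stood at 1.97, 2.10 and 1.79, so a level near 2 was not particular to the receptor families. Ribosomal protein genes, expressed in every cell, were at E of 0.92, 0.64 and 1.00, and clustered histone genes at 0.54, 0.36 and 0.83. No member of these last 2 lists was marked.

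Within the marked set, RNA level, H3K4me3 and gene length set the loss of a gene apart only slightly. The share at least 2-fold below both larger libraries was 72% of the 236 marked genes without RNA, 73.0% of the 840 with RNA under 1 RPKM, 74.0% of the 208 from 1 to 10 RPKM and 59.3% of the 27 with 10 RPKM or more. The residuals of these classes ran from -0.03 to 0.03. By quartile of H3K4me3, taken from the strongest 1 kb window of the gene, the share was 65.8%, 72.4%, 75.5% and 79.7% from the lowest to the highest, with residuals of 0.02, -0.02, -0.07 and -0.05. By quartile of gene length it was 70.5%, 70.9%, 71.6% and 77.7%, with residuals of 0.00, 0.02, -0.03 and -0.10. By chromosome the share ran more widely, from 58.1% of 31 marked genes on chromosome 16 to 88.3% of 60 on chromosome 3. The residuals of these chromosomes were 0.05 and -0.18. Residuals of single genes were spread more widely than the medians of the RNA, H3K4me3 and length classes. The middle part of the residuals of all marked genes ran from -0.23 to 0.18. This spread includes counting error, since the median marked gene rests on about 26 reads at 1000 cells. How much of it is a difference between genes was not tested. Among expressed marked genes, Kcnq1 had the highest RNA, 129 RPKM, and E of 14.7, 25.5 and 7.11; its body overlaps an antisense transcript, whose reads cannot be told apart here. Promoter CpG classes could not be formed, since a promoter sequence was at hand for 69.3% of marked genes only.

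Ranks, which need no scaling, were kept in part. Of 2180 genes in the top 10% of each library, 1860 (85.3%) were shared by the 2 larger libraries, while the 1000-cell library shared 71.7% with the 100000-cell and 70.9% with the 10000-cell library. Of the 1860 genes, 1443 (77.6%, exact Clopper-Pearson 95% interval 75.6 to 79.5) stood in it at 1000 cells too. All 38 Hox genes in the shared set were recovered (interval 90.7 to 100), as were 82 of 89 other homeobox genes (84.5 to 96.8) and 30 of 33 protocadherins (75.7 to 98.1). These intervals count genes as independent, which neighbours in the Hox and protocadherin clusters are not. Marked Hox genes also had a higher median E at 10000 cells, 30.2 against 19 for all marked genes. Recovery was not compared at equal level. Fgf ligands were recovered in 6 of 10 (26.2 to 87.8), imprinted genes in 9 of 14 (35.1 to 87.2) and Wnt ligands in 9 of 12 (42.8 to 94.5), intervals wide enough to hold the value of all genes. Fgf4, Fgf5, Fgf8 and Fgf16, and Wnt3, Wnt4 and Wnt11, were the ligands left out. In the 417 genes that dropped out, the median went from 1.36 RPKM with 10000 cells to 0.64 with 1000.

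At the level of single genes, most departures from the common loss were within counting error. The median marked gene rests on about 63 reads at 100000 cells, 54 at 10000 cells and 26 at 1000 cells, and the median ratio of E at 1000 cells was 0.432 to 100000 cells and 0.338 to 10000 cells. An exact 95% interval for each gene's own ratio, from these approximate reads, lay below both medians in 18 marked genes (1.37%) and above both in 31 (2.36%). With 1311 genes some intervals miss by counting alone, and the genes were picked for their difference, so they are described without a test.

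Among the genes with the largest differences, 5 were close to the unmarked level at 1000 cells. Wnt3 kept 0.10 of its 10000-cell E (interval 0.04 to 0.20) and Camk2n1, a CaM kinase inhibitor, 0.09 (0.03 to 0.20). Cnr1, the cannabinoid receptor of neurons, had 1.48, 1.55 and 0.25 RPKM, and Agbl3 had 1.88, 1.73 and 0.33. With Hspa2 (E of 1.61 at 1000 cells) and Zmiz1 (1.72), the genes Camk2n1 (1.61), Cnr1 (1.39) and Agbl3 (1.83) were the 5 marked genes below E of 2. Rxrg, a retinoid receptor, had 2.07, 2.36 and 0.48 RPKM, and Sp8, a limb and forebrain factor, 2.46, 2.54 and 0.68. For all of these the 2 larger libraries gave like values and the 1000-cell library alone was low. The start site of Wnt3 lies at position 103635488 of chromosome 11 on the plus strand (build mm9); every start past 75 Mb in the table is a multiple of 8, so such positions are exact to a few bases only.

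The genes that kept most were of other kinds. Sfi1, a centrosome gene at position 3093466 of chromosome 11, had 4.94, 5.89 and 7.75 RPKM and E of 38.0, 53.5 and 43.1, the highest H3K27me3 value at 10000 and 1000 cells of any gene. Speer7-ps1, a pseudogene of a rodent gene family, had 4.09, 4.35 and 5.44 RPKM. Its neighbours on chromosome 5, Speer4e and Speer4d, had 1.79, 1.72 and 2.34 and 1.34, 1.47 and 1.60 RPKM. All 4 marked genes of the 13 Speer genes had RPKM at 1000 cells that was not below both larger libraries, and their median E was 12.9, 16.6 and 10.9. The overlapping windows of 6820431F20Rik and 2610005L07Rik on chromosome 8, whose start sites are 114 bases apart, had 1.91, 2.21 and 3.24 RPKM and 2.95, 3.64 and 4.33 RPKM, beside RNA of 38.9 and 44.9 RPKM. 6820431F20Rik was the marked gene with the most positive difference (0.06). The table lists 6820431F20Rik at another place on chromosome 8 as well, the Speer genes are a family of close copies, and Sfi1 is known to be duplicated in mice. Reads may be split or joined between such copies, so these values are uncertain.

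**Figure D5:**
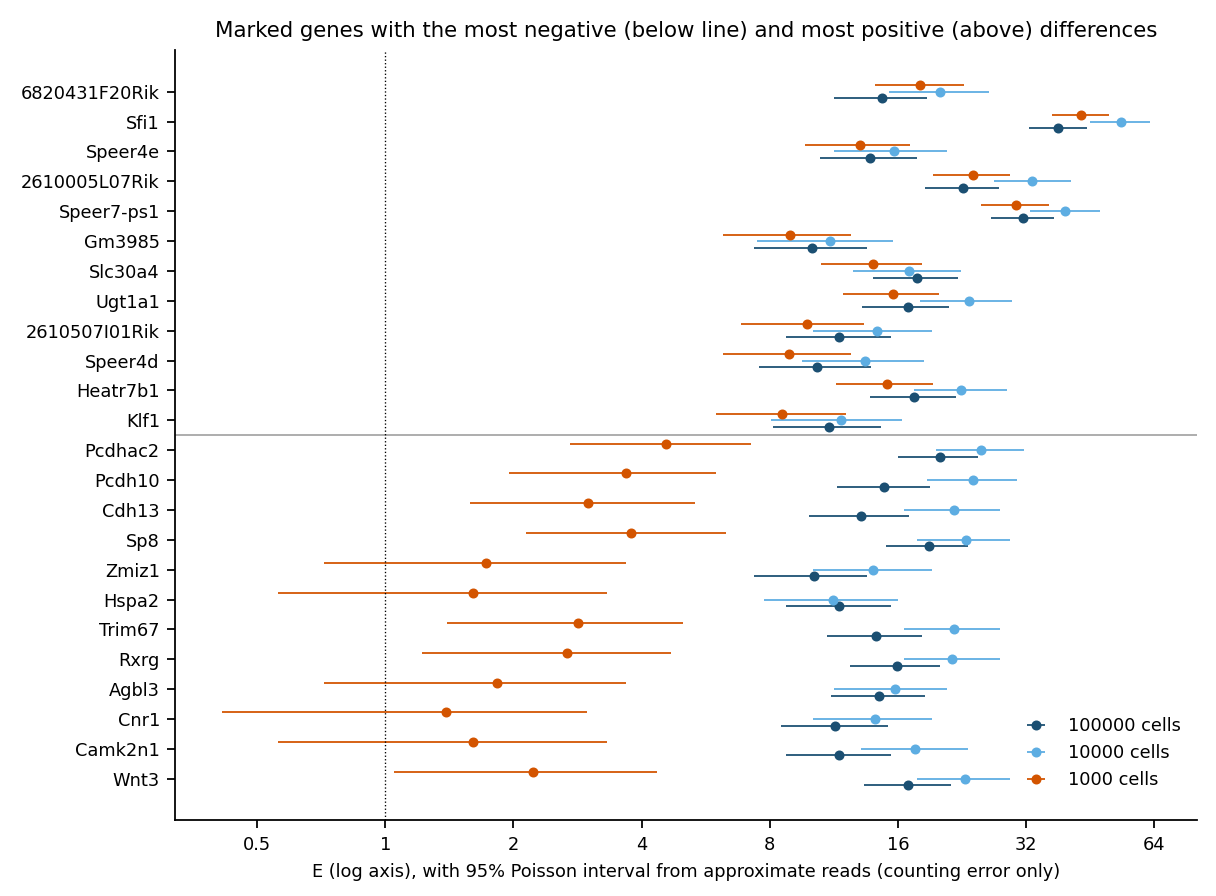
E in the 3 libraries (log axis) for the 12 marked genes with the most negative and the 12 with the most positive difference at 1000 cells, with 95% Poisson intervals from approximate reads that cover counting error only. Below the line the 1000-cell points, from 1.39 (Cnr1) to 4.56 (Pcdhac2), are far left of the others; above it the 3 points of a gene lie close together.

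Other genes that kept most lay in groups. Ugt1a1, Heatr7b1, Hjurp and Trpm8 start within 94.8 kb of each other on chromosome 1 (positions 90108536 to 90203288, mm9). Trpm8, the cold-sensing channel of sensory neurons, had 2.43, 2.69 and 2.61 RPKM, and Hjurp, the chaperone of the centromeric histone, had 2.35, 2.85 and 2.72 RPKM with RNA of 11.4 RPKM. Ugt1a1, a liver conjugating enzyme, had 2.19, 2.58 and 2.80 RPKM. The 1000-cell RPKM of Trpm8 and Hjurp lay between those of the larger libraries, and that of Ugt1a1 above both. On the E scale each was lower at 1000 than at 10000 cells. The ratios were 0.59 (interval 0.41 to 0.86) for Trpm8, 0.58 (0.41 to 0.83) for Hjurp and 0.66 (0.46 to 0.96) for Ugt1a1. The median ratio of marked genes was 0.338. Klf1, an erythroid factor, and Mast1 start 35.4 kb apart on chromosome 8 and belonged to the same 31 genes, as did Msx3 and Wnt10b.

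Promoters of the extremes are shown to let their base composition be compared. They are 1 gene with strong signal and the common loss (Lhx1) and the gene that lost most (Wnt3). Beside them are a gene of chromosome 1 that lost less than the median marked gene (Trpm8) and a gene of the Speer family (Speer4e). Each is the 250 bases before the RefSeq start, 5′ to 3′ on the gene's strand, from build GRCm38.p6, with CpG dinucleotides in capitals.
Lhx1: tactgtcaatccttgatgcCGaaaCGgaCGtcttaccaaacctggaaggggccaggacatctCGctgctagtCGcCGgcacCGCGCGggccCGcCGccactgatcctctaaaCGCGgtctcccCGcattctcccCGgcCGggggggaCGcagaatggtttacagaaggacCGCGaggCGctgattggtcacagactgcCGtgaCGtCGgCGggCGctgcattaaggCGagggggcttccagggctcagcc
Wnt3: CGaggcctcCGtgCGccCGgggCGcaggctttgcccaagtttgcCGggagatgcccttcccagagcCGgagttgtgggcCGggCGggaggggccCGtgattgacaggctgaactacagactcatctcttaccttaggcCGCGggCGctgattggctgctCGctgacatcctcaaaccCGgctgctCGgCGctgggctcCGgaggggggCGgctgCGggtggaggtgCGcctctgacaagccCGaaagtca
Trpm8: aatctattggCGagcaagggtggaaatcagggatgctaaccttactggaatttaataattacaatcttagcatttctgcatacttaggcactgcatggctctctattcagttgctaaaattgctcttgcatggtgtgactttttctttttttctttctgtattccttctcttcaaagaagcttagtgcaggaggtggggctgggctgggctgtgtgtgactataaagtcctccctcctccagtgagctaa
Speer4e: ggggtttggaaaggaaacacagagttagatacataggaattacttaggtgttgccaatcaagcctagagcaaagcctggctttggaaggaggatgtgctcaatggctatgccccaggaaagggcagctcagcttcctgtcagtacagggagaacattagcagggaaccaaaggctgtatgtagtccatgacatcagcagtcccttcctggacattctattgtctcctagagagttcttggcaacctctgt
The stretch of Lhx1 holds 26 CpG and that of Wnt3 22, where the median of 32851 mouse promoters is 6, and 9.59% and 14.8% of all promoters have at least as many. That of Trpm8 holds 1 and that of Speer4e 0. The gene with the common loss and the gene with the largest loss were alike in this count, and these 4 stretches were chosen by hand, so nothing follows for the classes.

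Chromosomes 1, 8 and 11 held 22 of the 31 genes above both medians and 6 of the 18 below, where they held 397 of the 1311 marked genes (30.3%) and 18.2% of all genes. Expressed transcripts without the mark also had more signal there: their median was 0.16, 0.13 and 0.22 RPKM at 100000, 10000 and 1000 cells, against 0.12, 0.11 and 0.17 on the other chromosomes. The marked call used 1 unmarked level for all chromosomes. Whether this raised the 30.3% was not tested. A further set, the 31 marked genes with the most positive difference whatever their interval, had 19 genes on these chromosomes under the main scaling. When the unmarked level was taken separately for these chromosomes, 9 of the 31 genes with the most positive difference lay on them. The sets from the main and the separate scaling shared 21 genes. Marked genes on chromosomes 1, 8 and 11 had median E of 15.8, 21.3 and 7.28, others 14.2, 18.3 and 6.33, and the differences of both groups from 10000 cells were close (-1.41 and -1.45). Of 514 genes in the top 10% at 1000 cells alone, 40.9% lay on these chromosomes, against 34.2% of genes in the top 10% of every library.

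The panH3 signal was also read near the extreme genes. Bins within 10 kb were in the table for 12 of the 31 genes above both medians, with a median panH3 of 0.633 RPKM and a range of 0.435 to 1.41, and for 10 of the 18 below both medians, with a median of 0.43 and a range of 0.24 to 0.65. Of these genes 8 of the 12 and 2 of the 10 were on chromosomes 1, 8 and 11, where panH3 was higher for marked genes in general (median 0.635 in the middle of 3 classes). All 683 marked genes with such a bin had a median of 0.458, and all bins 0.42. The bins beside Speer4d had the highest value of these genes, 1.45 and 1.37 RPKM in the panH3 libraries, and those beside Ugt1a1 had 0.83 and 0.90. Over all 683 genes the relation was weak, with median residuals of -0.07, -0.03 and 0.02 in 3 classes of rising panH3, and 178 of the 225 genes in the highest class were on chromosomes 1, 8 and 11. Within those chromosomes such classes had residuals of 0.03, -0.07 and 0.04, and off them -0.08, -0.02 and -0.04, with no steady rise in either. The part of panH3 level in the single genes was not tested.

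The genes beside the threshold of the marked set are given as a description. Just inside it, Itpkb had E of 10, 10.1 and 3.0, Odz4 had 10, 10.1 and 3.06, and Mrc2 had 10.2, 10 and 3.11. Just outside, Galnt10 had 9.92, 11.5 and 4.28, Msc had 9.92, 14 and 7.22, and Dio3os had 9.92, 19.3 and 7.78. The 3 genes just outside had higher values at 10000 and 1000 cells than the 3 just inside.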

How the data were processed

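The authors deposited RPKM values, 1 column per library, per the file headers: H3K27me3 within 1 kb of start sites with RNA over exons, H3K4me3 in 1 kb windows, and H3K27me3 and panH3 in 2 kb bins (the panH3 columns name no unit and were taken as RPKM). The build was mm9 and the tools include SAMtools and BWA, per the submitters' processing notes; versions and read filters are not given in the labels or headers used here. The start-site table also gives exon and gene lengths, and 2 columns of another series in the H3K4me3 table were not used.

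Bin values were whole multiples of 1 read in over 99% of low values, which gave about 19.7 M, 15.3 M and 13 M reads at 100000, 10000 and 1000 cells. Start-site values were not whole multiples, so reads there are approximate (1 read is worth about 0.0298, 0.0389 and 0.0458 RPKM). The plan gave exact intervals for single genes only if reads could be recovered. They were computed from these approximate reads, and no p-value was taken from them. A median unmarked start site thus rests on 3 to 4 reads and a marked one on 26 to 63. No reads were recovered for the RNA library, whose depth is unknown here.

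E, marked genes (E of at least 10 in both larger libraries), level classes (20 of equal size for residuals) and exact intervals were computed with Python 3.11.15, pandas 2.3.3 and scipy 1.17.1, on log2(E + 1). The scripts were run on simulated tables with a known loss, in which the 2 larger libraries had the same true level at each start site. The outcome of these runs is not given here.

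Named genes are, per list, the 4 highest and the marked members with the most negative and most positive difference, and over all genes the 12 most negative and 12 most positive with at least 1 RPKM on average, the genes beside the threshold, and marked pluripotency genes. Others (Trpm8, Hjurp, Mast1, Fn1, Vim, the Speer genes, genes missed at the top 10%) were named after their values were seen, as were the panH3 classes. The members and the 34 lists were chosen with earlier results of these data known. Promoters are from RefSeq and matched by symbol or accession for 76.0% of genes. Alternatives covered scaling, pseudocount, threshold, rows per gene, depth, low values and chromosomes.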

Additional observations from a re-analysis of the deposited data

How the results depend on the processing

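The differences of marked genes at 1000 cells kept their sign under each of the 16 alternatives run. Without scaling they were -0.68 from 100000 cells and -0.78 from 10000 cells, with 246 genes at least 2-fold below both larger libraries in place of 953. Scaled to ribosomal protein genes they were -1.26 and -1.99, and scaled to the median of all transcripts -0.82 and -0.86 with 506 genes. With the unmarked level subtracted they were -0.79 and -0.93 with 452 genes, so the count depends on the scale. An unmarked set with RNA of at least 10 RPKM gave -1.47 from 10000 cells. A pseudocount of 0.5 gave -1.15 and -1.49, and 2 gave -1.01 and -1.32. Marked genes from E of 5 gave -0.87 and -1.19 with 1957 genes, and from E of 20 -1.18 and -1.49 with 202 genes; the counts move with the size of the set. Thinning reads to the shallowest library gave -1.72 from 10000 cells and a recovery of 79.9% of the shared top 10%. Leaving out chromosomes 1, 8 and 11 gave -1.13 from 100000 cells. Of 2 alternatives added after seeing the data, an unmarked level by chromosome group gave -1.13 and -1.40, and the mean of the unmarked set -1.08 and -1.29. Where no construction is named, the cause was not tested. The medians of the 22 lists with at least 4 marked members were negative under each alternative (15 lists had members from E of 20). The lists are parts of the marked set, where nearly all genes were lower at 1000 cells, so their shared sign adds no separate support. No paired analysis was possible because each H3K27me3 group has 1 library. Depth limits single genes, since a gene at E of 2 at 1000 cells rests on about 8 reads.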
